A study of Homo sapiens with 10 samples.

Results

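Integrins are the cell's main receptors for the extracellular matrix, and 10 of their subunit genes, 6 for alpha and 4 for beta chains, were followed across the RNA sequencing libraries of a study of matrix stiffness. The genes were taken by name (ITGA2, ITGA3, ITGA4, ITGA5, ITGA6, ITGAV, ITGB1, ITGB3, ITGB5 and ITGB8), not by a rule on a measured value, but with earlier results of these data known. They are 10 of 40664 gene rows. All 10 passed the filter on low counts, as did 13990 genes in all. The cells were hTERT RPE-1, a telomerase-immortalised human line from the retinal pigment epithelium. The libraries comprised 3 of siNemp1 cells and 3 of control cells on a stiff substrate of 120 kPa, and 2 of siNemp1 cells and 2 of control cells on a soft substrate of 10 kPa. siNemp1 is a small interfering RNA against NEMP1, which encodes a protein of the inner nuclear membrane. What the control cells received, the substrate material and whether replicates were separate cultures are not given in the labels, so each p-value refers to the spread among these libraries, which may be technical in origin.

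An integrin is a pair of one alpha and one beta chain, each crossing the plasma membrane once. The alpha chain largely sets which matrix protein is bound, and the beta tail inside the cell is bound by talin and kindlin, which link it to actin at focal adhesions. Cells feel the stiffness of their matrix partly through these adhesions, and the LINC complex carries force from actin across the nuclear envelope. Alpha-5 pairs with beta-1 as the main fibronectin receptor, alpha-V pairs with beta-1, beta-3, beta-5 or beta-8 in receptors for vitronectin and latent TGF-beta, alpha-3 and alpha-6 with beta-1 bind laminins, alpha-2 with beta-1 binds collagen, and alpha-4 with beta-1 binds fibronectin and VCAM1.

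The coding sequence of the beta tails is shown because it holds a feature by which the beta members differ, and because part of it bears on how ITGB1 was counted. Each line gives the last 150 coding bases before the stop codon in GENCODE 29, 5′ to 3′, and capitals mark in-frame codons for Asn-any-any-Tyr, the form shared by the membrane-near NPXY site that binds talin and the distal site that binds kindlin. They lie at chr10:32901573-32908454 (ITGB1, minus strand), chr17:47307551-47310201 (ITGB3, plus), chr3:124763626-124764447 (ITGB5, minus) and chr7:20409749-20409994 (ITGB8, plus) on GRCh38, with introns removed.
ITGB1: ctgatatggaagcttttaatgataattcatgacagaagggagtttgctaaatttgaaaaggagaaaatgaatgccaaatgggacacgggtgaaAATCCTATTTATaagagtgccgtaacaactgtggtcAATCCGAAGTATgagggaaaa
ITGB3: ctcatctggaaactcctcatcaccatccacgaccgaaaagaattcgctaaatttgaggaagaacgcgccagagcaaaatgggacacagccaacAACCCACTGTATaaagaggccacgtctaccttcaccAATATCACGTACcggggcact
ITGB5: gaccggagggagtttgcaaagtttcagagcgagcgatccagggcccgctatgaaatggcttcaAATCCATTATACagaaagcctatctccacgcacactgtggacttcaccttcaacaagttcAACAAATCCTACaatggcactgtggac
ITGB8: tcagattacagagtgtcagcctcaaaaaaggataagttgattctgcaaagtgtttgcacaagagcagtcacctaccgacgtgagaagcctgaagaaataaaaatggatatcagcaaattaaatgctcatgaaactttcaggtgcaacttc
ITGB1, ITGB3 and ITGB5 each had 2 such codon sets in this window, and ITGB8 had 0. Both sets of ITGB1 spell NPXY (proline in second place), against 1 of the 2 in ITGB3 and in ITGB5. The ITGB1 window is also present, base for base, in ITGB1P1, a processed pseudogene at chr19:14621634-14622242 (minus strand). All 609 bases of ITGB1P1 aligned to the ITGB1 coding sequence with 0 differences. In the deposited table, ITGB1P1 held 5.06% to 6.14% of the counts of both genes together in the 10 libraries, so the ITGB1 count depends on how the authors' quantification split reads between the pair. Adding the ITGB1P1 counts to ITGB1 left its log2 fold change at −0.06 (SE 0.17) for siNemp1 against control at 120 kPa and at 0.18 (SE 0.20) at 10 kPa, against −0.06 (SE 0.16) and 0.18 (SE 0.20) without them. ITGB3 shares 2266 exon bases on its own strand with a readthrough gene of GENCODE 29, AC068234.1, so its counts are uncertain in the same way. Strandedness is not given, so reads of a member and of an overlapping antisense gene cannot be told apart.

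The knockdown was checked first. NEMP1 stood at 7.52, 6.70 and 4.11 counts per 1000000 (CPM, scaled between libraries by TMM) in siNemp1 cells at 120 kPa, against 18.3, 14.0 and 14.1 CPM in control cells at 120 kPa. At 10 kPa it stood at 8.22 and 7.63 CPM in siNemp1 cells, against 14.1 and 17.3 CPM in control cells. All 5 siNemp1 libraries were below all 5 control libraries. Averaged over both stiffnesses NEMP1 fell by 1.16 (log2, SE 0.18; adjusted p 0.044 with TMM and 0.051 with DESeq2's size factors). In the same fit with TMM its adjusted p was 0.057 at 120 kPa and 0.80 at 10 kPa. Unless another tool is named, adjusted p-values come from edgeR's quasi-likelihood test, adjusted by the method of Benjamini and Hochberg over all tested genes, and a gene is called where its adjusted p is under 0.05. Library totals were 17.9 to 23.8 M estimated counts. Of the epithelial markers, KRT8 lay between 755 and 1205 CPM over the libraries, while CDH1 and EPCAM were at or near 0. RPE65 and RLBP1, markers of differentiated retinal pigment epithelium, were also at or near 0, while BEST1 (57.5 to 91.7 CPM), MITF (81.1 to 154 CPM) and OTX2 (18.4 to 29.7 CPM), of the same list of 7, were present. VIM, a mesenchymal filament protein, lay between 1605 and 2998 CPM. The summed CPM of 6 mesenchymal markers was 2045 to 3003 in siNemp1 cells and 3090 to 3855 in control cells at 120 kPa. At 10 kPa it was 3149 to 3396 in siNemp1 cells and 3936 to 4064 in control cells. VIM and THY1 (255 to 832 CPM) made up most of this sum. CDH2 lay between 111 and 148 CPM, and PDGFRB, PDGFRA and COL1A1 were lower still. The part of this sum in the results below was not tested. In bulk RNA, fewer cells of a type and less RNA per cell cannot be told apart.

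The 10 subunits spanned a wide range of levels. On a scale of CPM per kilobase (kb) of the longest coding transcript, ITGB1, the beta chain shared by most matrix receptors, was highest at 287 ± 39.0 (mean ± SD, n = 10 libraries), followed by ITGA5 at 199 ± 26.5 and ITGA3 at 119 ± 32.4. ITGB5, a partner of alpha-V in vitronectin binding, had 49.9 ± 6.12 CPM per kb, and ITGB8, a partner of alpha-V in the activation of latent TGF-beta, had 25.01 ± 6.58. The collagen receptor chain ITGA2 (10.9 ± 1.53), ITGAV (7.26 ± 0.754) and the laminin receptor chain ITGA6 (5.98 ± 0.542) followed. ITGA4 had 2.93 ± 0.499 CPM per kb, and ITGB3 had the lowest level, 0.557 ± 0.445. The range over libraries overlapped between the neighbours ITGB1 and ITGA5, ITGA5 and ITGA3, ITGB8 and ITGA2, ITGA2 and ITGAV, and ITGAV and ITGA6, but within a library each was above the next in 9 or 10 of 10 libraries. With the median transcript length in place of the longest, only ITGA3 and ITGB5 exchanged places.

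**Figure D1:**
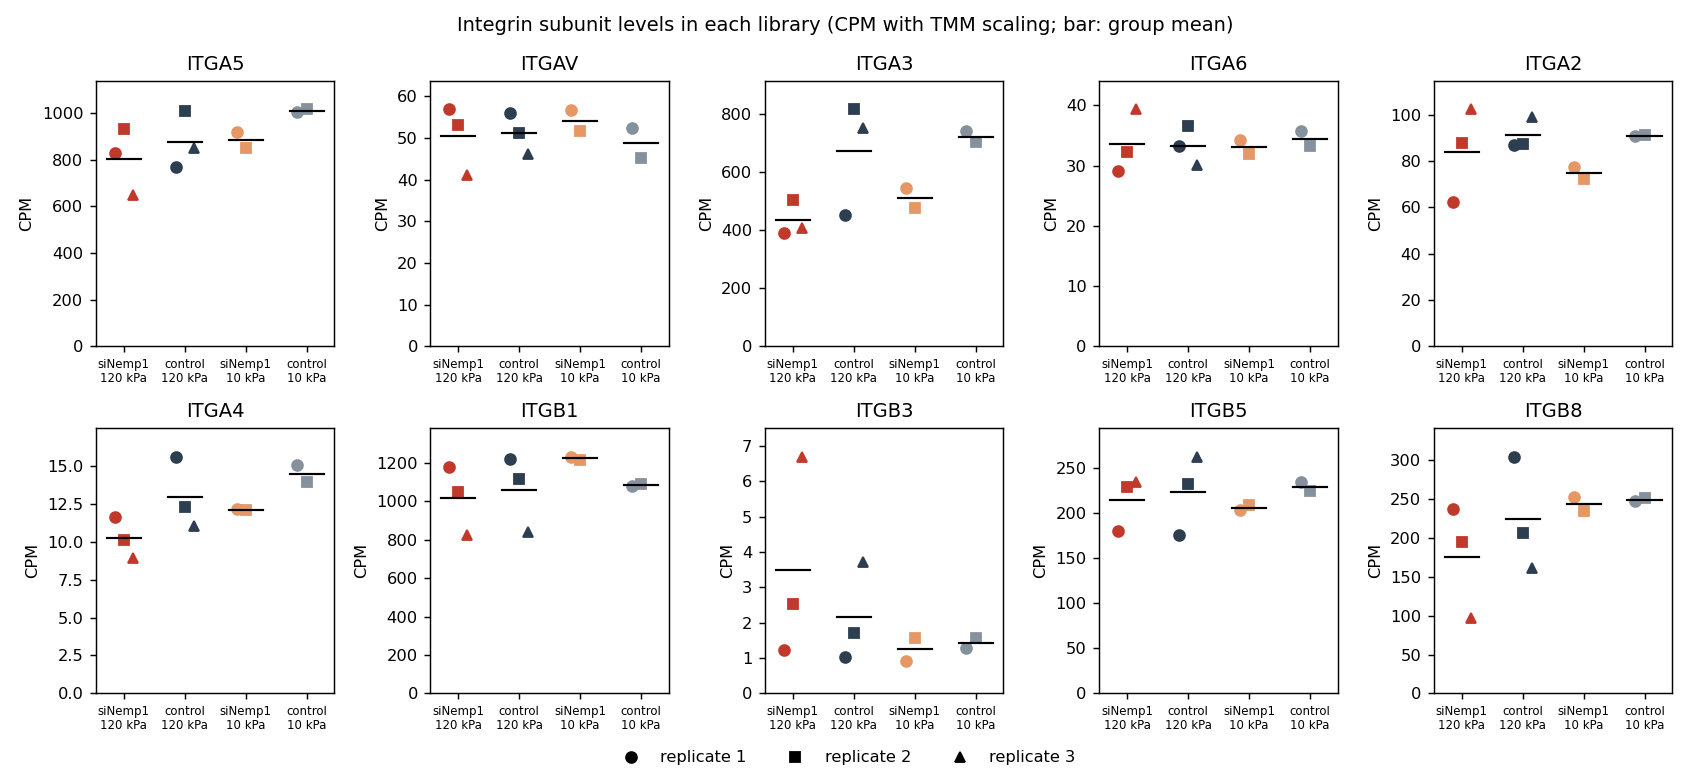
Level of each integrin subunit in CPM (TMM scaling) in all 10 libraries, one point per library, grouped by treatment and stiffness. Each subunit has its own panel and its own linear axis, and bars mark group means. Heights cannot be compared between panels, and the points of ITGB3 are spread most widely relative to their level.

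As shares of the summed CPM per kb of the 6 alpha members, ITGA5 and ITGA3 made up most of the pool. ITGA3 held 30.1% ± 2.48 of it in siNemp1 cells and 37.5% ± 5.25 in control cells at 120 kPa (SD, n = 3 each). At 10 kPa it held 31.7% ± 0.873 in siNemp1 cells and 36.7% ± 0.925 in control cells (SD, n = 2 each). ITGA5 held 60.9% ± 3.85 in siNemp1 cells and 54.7% ± 3.78 in control cells at 120 kPa. At 10 kPa ITGA5 held 60.4% ± 0.729 in siNemp1 cells and 56.4% ± 1.13 in control cells. The ITGA3 share was thus lower and the ITGA5 share higher in the siNemp1 group at both stiffnesses, with group ranges at 120 kPa that overlapped. Shares of the same pool are tied to each other, so the higher ITGA5 share does not show a higher ITGA5 level. The ITGA5 log2 fold change for siNemp1 against control was −0.13 (SE 0.15) at 120 kPa and −0.19 (SE 0.19) at 10 kPa. Of the 4 beta members, ITGB1 made up 78.0% ± 3.86 to 79.1% ± 2.70 at 120 kPa and 77.9% ± 0.394 to 81.1% ± 0.0689 at 10 kPa. These shares were not tested.

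The alpha chains that bind fibronectin and vitronectin showed small differences. ITGA5 (ENSG00000161638, chr12:54395261-54419460, minus strand) had 828, 933 and 648 CPM in siNemp1 cells at 120 kPa, against 771, 1009 and 851 CPM in control cells. On the soft substrate it had 919 and 849.5 CPM in siNemp1 cells, against 1004 and 1016 CPM in control cells. The groups overlapped at 120 kPa, and at 10 kPa both siNemp1 libraries were below both control libraries. ITGAV (ENSG00000138448, chr2:186590065-186680901, plus) had 56.8, 53.2 and 41.0 CPM in siNemp1 cells at 120 kPa, against 55.9, 51.2 and 46.1 CPM in control cells. At 10 kPa it had 56.7 and 51.6 CPM in siNemp1 cells, against 52.5 and 45.3 CPM in control cells. Its groups overlapped at both stiffnesses. ITGA4 (ENSG00000115232, chr2:181457202-181536187, plus), whose protein is best known from leukocytes, had 11.6, 10.1 and 8.95 CPM in siNemp1 cells at 120 kPa, against 15.6, 12.3 and 11.04 CPM in control cells. On 10 kPa the level was 12.2 and 12.1 CPM in siNemp1 cells, against 15.05 and 13.9 CPM in control cells. In each of the 5 same-numbered pairs ITGA4 was lower in the siNemp1 library, by 0.20 to 0.43 on the log2 scale. The same held for 13.9% of tested genes.

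Of the laminin and collagen receptor chains, ITGA3 had the largest difference. ITGA3 (ENSG00000005884, chr17:50055968-50090481, plus), the alpha chain of the main laminin receptor of many epithelia, had 391, 504 and 409 CPM in siNemp1 cells at 120 kPa, against 454, 817 and 753 CPM in control cells. At 10 kPa the values were 544 and 476 CPM in siNemp1 cells, against 742 and 704 CPM in control cells. Control replicate 1 at 120 kPa was low and fell among the siNemp1 libraries, and at 10 kPa the groups did not overlap. ITGA6 (ENSG00000091409, chr2:172427354-172506282, plus) had 29.1, 32.3 and 39.3 CPM in siNemp1 cells at 120 kPa, against 33.3, 36.6 and 30.1 CPM in control cells. On the soft substrate the values were 34.3 and 31.9 CPM in siNemp1 cells, against 35.7 and 33.3 CPM in control cells. ITGA6 varied least of the 10 members, with a coefficient of variation of 9.06% over all libraries. ITGA2 (ENSG00000164171, chr5:52989326-53094779, plus) had 62.4, 87.7 and 102.3 CPM in siNemp1 cells at 120 kPa, against 86.8, 87.3 and 99.2 CPM in control cells. At 10 kPa it had 77.7 and 72.5 CPM in siNemp1 cells, against 90.8 and 91.3 CPM in control cells. The siNemp1 libraries at 120 kPa held both the lowest and the highest ITGA2 level of all libraries.

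Among the beta chains, ITGB1 (ENSG00000150093, chr10:32900319-33005792, minus) had 1179, 1050.05 and 824 CPM in siNemp1 cells at 120 kPa, against 1219, 1118 and 841 CPM in control cells. On 10 kPa the level was 1232 and 1215 CPM in siNemp1 cells, against 1078 and 1089.8 CPM in control cells. In both treatments at 120 kPa replicate 3 was lowest, and at 10 kPa both siNemp1 libraries were above both control libraries. ITGB3 (ENSG00000259207, chr17:47253846-47311816, plus), the beta chain of the classical vitronectin receptor, had 1.23, 2.54 and 6.70 CPM in siNemp1 cells at 120 kPa, against 1.04, 1.71 and 3.71 CPM in control cells. On the soft substrate it had 0.923 and 1.57 CPM in siNemp1 cells, against 1.29 and 1.56 CPM in control cells. These levels rest on 22 to 155 counts a library, and the 95% exact Poisson interval, which covers counting error only, was 5.69 to 7.85 CPM for the highest library and 0.578 to 1.40 CPM for the lowest. ITGB5 (ENSG00000082781, chr3:124761948-124901418, minus) had 179, 229 and 234 CPM in siNemp1 cells at 120 kPa, against 176, 232 and 262 CPM in control cells. At 10 kPa the values were 203 and 209 CPM in siNemp1 cells, against 234 and 224 CPM in control cells. ITGB8 (ENSG00000105855, chr7:20330702-20415754, plus) had 237, 194 and 97.1 CPM in siNemp1 cells at 120 kPa, against 305, 207 and 162 CPM in control cells. At 10 kPa ITGB8 had 253 and 234 CPM in siNemp1 cells, against 248 and 251 CPM in control cells. In both treatments at 120 kPa ITGB8 was highest in replicate 1 and lowest in replicate 3, and ITGB3 was the reverse.

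The first comparison asked whether siNemp1 changed the subunits on the stiff substrate. In edgeR's quasi-likelihood test, adjusted by Benjamini-Hochberg, 0 of 10 members passed at 120 kPa, and 0 of all 13990 tested genes passed (0% called). At an unadjusted p under 0.05 there were 2413 genes (17.2% of those tested), of which 1 was a member, ITGA3. Its log2 fold change was −0.63 (SE 0.20), or 0.644 times the control level, with an adjusted p of 0.14. ITGB8 had a log2 fold change of −0.35 (SE 0.30) and ITGA4 of −0.34 (SE 0.17), while ITGB3 had 0.70 (SE 0.59). The other 6 members lay between −0.13 and 0.01. The median over the 10 members was −0.09, against 0.01 over all tested genes, and 8 members were lower and 2 higher in siNemp1 cells. ITGA6 was 1 of the 2, at 0.01, and its sign turned with the scaling of the libraries. Groups of 0 of 10 members were free of overlap, against 17.9% of tested genes.

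Same-numbered libraries at 120 kPa deviated together, so the fit was repeated with the replicate number as a block. It called 1224 genes (8.75% called) and 0 of 10 members. The lowest adjusted p-values of members in that fit were 0.089 for ITGB8 (log2 fold change −0.40, SE 0.13) and 0.092 for ITGA3 (−0.62, SE 0.20), by edgeR's quasi-likelihood test. Fitted to the 6 libraries at 120 kPa alone, the block called 1255 of 13362 genes (9.39% called) and 1 member, ITGA3, at −0.63 and an adjusted p of 0.017; this fit was added after the data were seen. DESeq2 called 642 genes (6.83% called) and 1 member, ITGA3, at −0.65 (SE 0.20) and an adjusted p of 0.025. ITGA3 was also called in edgeR without a filter on low counts (2.73% called), at −0.65 (SE 0.15) with an adjusted p of 0.0028. Over the other settings tried at 120 kPa the adjusted p of ITGA3 ran from 0.0028 to 0.44 and its log2 fold change from −0.86 to −0.49, so its direction held in each while the call depended on the setting. The value farthest from 0 came from leaving out control replicate 1, and the nearest from leaving out control replicate 2. For ITGB3, leaving out siNemp1 replicate 3 at 120 kPa alone gave a log2 fold change of −0.22 in place of 0.70. That fit keeps control replicate 3, the highest control library for ITGB3. Paired by number, the ITGB3 differences at 120 kPa were 0.22, 0.55 and 0.84. The blocked edgeR fit gave 0.60 (SE 0.26, adjusted p 0.18). Without the same siNemp1 library, the ITGB8 value was −0.10 in place of −0.35, and without control replicate 1 it was −0.07. The ITGB8 pair differences were −0.36, −0.09 and −0.74.

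**Figure D2:**
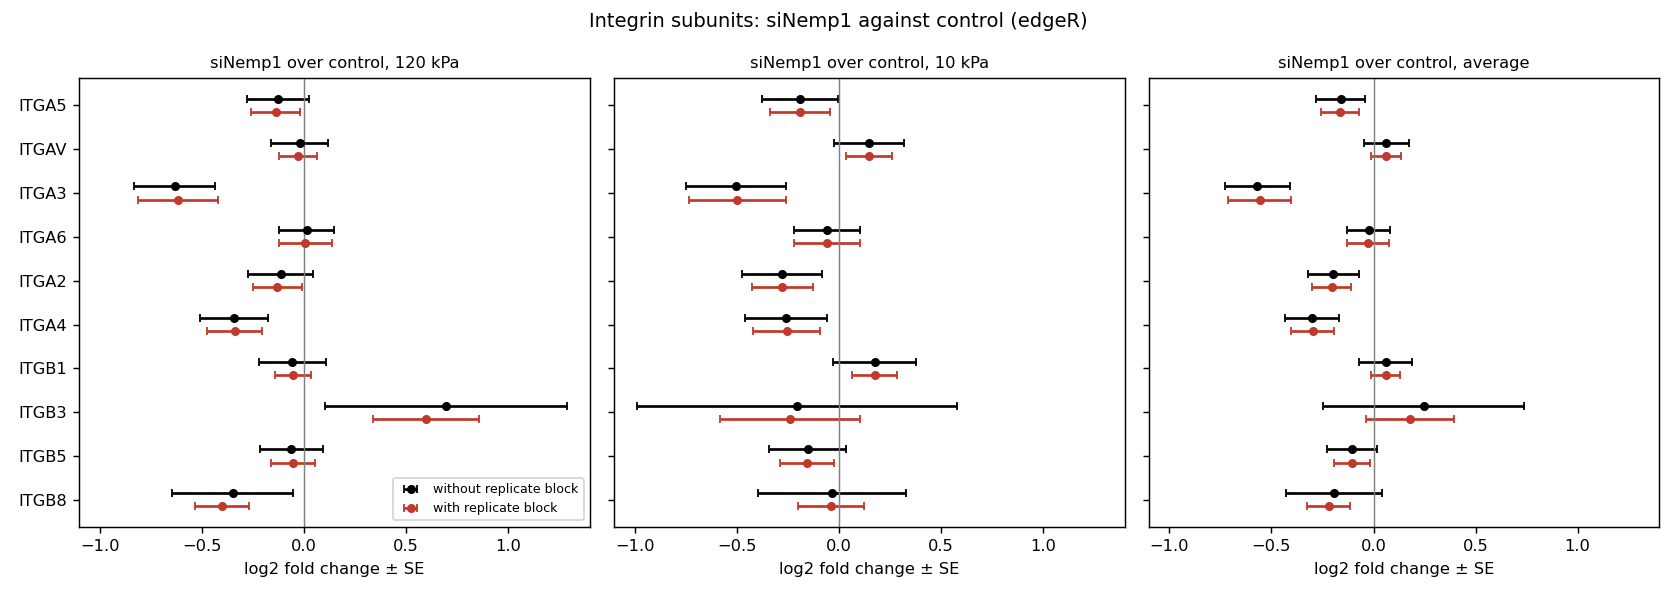
Log2 fold change of siNemp1 over control (± SE, edgeR) for each subunit at 120 kPa, at 10 kPa and averaged over both, with no block and with a block for the replicate number. ITGA3 lies to the left of 0 in all panels, between −0.63 and −0.50, and the error bars of ITGB3 are the widest.

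On the soft substrate, siNemp1 against control, 0 of 10 members and 0 of 13990 genes (0% called) passed edgeR's quasi-likelihood test on all libraries, with 850 genes and 0 members at an unadjusted p under 0.05. The blocked fit called 4 genes (0.0286% called) and DESeq2 17 genes (0.111% called), with 0 members in each. ITGA3 had the value farthest from 0 among the members, a log2 fold change of −0.50 (SE 0.24) with an adjusted p of 0.83. That is 0.706 times the control level. ITGA2 (−0.28, SE 0.19), ITGA4 (−0.26, SE 0.20), ITGA5 (−0.19, SE 0.19) and ITGB5 (−0.15, SE 0.19) were lower, and ITGB1 (0.18, SE 0.20) and ITGAV (0.15, SE 0.17) higher, none past the threshold. The member median was −0.17, against −0.0018 over all genes.

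The 4 libraries at 10 kPa were far closer to each other than those at 120 kPa. The common dispersion was 0.00423 for the libraries at 10 kPa fitted alone, against 0.0525 for those at 120 kPa fitted alone. It was 0.0387 over all 10 libraries. The fit of the 10 kPa libraries alone called 2308 of 13345 genes (17.3% called) and 5 of 10 members by edgeR's quasi-likelihood test. ITGA3 fell by 0.52 on the log2 scale (SE 0.06, adjusted p 1.54e-05) and ITGA2 fell by 0.29 (SE 0.06, adjusted p 0.0028). ITGA5 fell by 0.21 (SE 0.06, adjusted p 0.014) and ITGB5 fell by 0.17 (SE 0.06, adjusted p 0.040). ITGB1 rose by 0.16 (SE 0.05, adjusted p 0.042). Each of these 5 calls was absent from the fit of all libraries, and each rests on 2 libraries per group. ITGA2, ITGA3, ITGA4, ITGA5 and ITGB5 were free of overlap and lower in siNemp1 cells, and ITGB1 free of overlap and higher, which is 6 of 10 members against 57.3% of all tested genes, a share near the background.

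Averaged over both stiffnesses, siNemp1 against control, 180 genes (1.29% called) and 0 of 10 members passed edgeR's quasi-likelihood test; with the block 1504 genes (10.8% called) and 0 members did. There were 2763 genes (19.7% of those tested) and 2 of 10 members, ITGA3 and ITGA4, at an unadjusted p under 0.05. The share of members was thus near the background. This average is made of the same libraries as the 2 comparisons above. ITGA3 had a log2 fold change of −0.57 (SE 0.16), with an adjusted p of 0.090 without and 0.056 with the replicate block. DESeq2 called 993 genes (11.1% called) and 1 member, ITGA3, with an adjusted p of 0.0080. Without a filter on low counts ITGA3 was called too (2.76% called). Over all settings tried the adjusted p of ITGA3 ran from 0.00046 to 0.36. Leaving out control replicate 1 at 120 kPa, the low library, gave −0.68 and an adjusted p of 0.034 in edgeR, in a fit that called 369 of 13934 genes (2.65% called). ITGA4 had −0.30 (SE 0.13), with an adjusted p of 0.23 without and 0.095 with the block in edgeR.

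The libraries were also paired by number, although the numbers were found to pair libraries at 120 kPa and not at 10 kPa. Of 10 members, 2 went the same way in all 5 pairs, and both, ITGA3 and ITGA4, were lower in siNemp1 cells. Of tested genes, 13.9% were lower in all 5 pairs and 17.3% higher. The same way covers both directions, so 2 of 10 members was not above the background. The ITGA3 pair differences (log2, siNemp1 minus control) were −0.22, −0.70 and −0.88 at 120 kPa and −0.45 and −0.56 at 10 kPa. For ITGA4 they were −0.43, −0.28 and −0.30 at 120 kPa and −0.31 and −0.20 at 10 kPa. ITGAV and ITGB3 were higher in the siNemp1 library of 4 of 5 pairs, and ITGA5, ITGA6, ITGB5 and ITGB8 lower in 4 of 5. The share of counts on mitochondrial genes was lower in the siNemp1 library of each pair at 120 kPa, 1.06%, 0.826% and 0.709% in siNemp1 cells against 1.73%, 1.40% and 0.913% in control cells. At 10 kPa it was 1.48% and 1.55% in siNemp1 cells, against 1.60% and 1.54% in control cells. The share on ribosomal RNA genes was lower in the siNemp1 library of all 5 pairs: 0.255%, 0.237% and 0.164% in siNemp1 cells against 0.394%, 0.304% and 0.229% in control cells at 120 kPa, and 0.323% and 0.322% in siNemp1 cells against 0.404% and 0.392% in control cells at 10 kPa. Mitochondrial ribosomal RNA genes are counted in both shares, so the shares overlap. The part of both shares in the differences of the members was not tested.

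The next comparison asked whether stiffness changed the subunits within a treatment. In siNemp1 cells, 120 kPa against 10 kPa, 0 of 10 members and 0 of 13990 genes (0% called) passed edgeR's quasi-likelihood test, and 1655 genes, 0 of them members, had an unadjusted p under 0.05. The blocked fit called 2 genes (0.0143% called) and DESeq2 111 (2.3% called), with 0 members in each. ITGB3 had the largest log2 difference, 1.502 (SE 0.71, adjusted p 0.43), which was 0.66 (SE 0.32) with the block and 0.58 without siNemp1 replicate 3 at 120 kPa. Without a filter on low counts (2.25% called) ITGB3 was called at 1.48 with an adjusted p of 0.014, within a range of 0.014 to 0.92 over its alternatives. ITGB8 had −0.47 (SE 0.33), which was −0.26 (SE 0.15) with the block and ran from −0.75 to −0.21 with 1 library left out. ITGB1 had −0.27 (SE 0.18), or −0.13 (SE 0.10) with the block. ITGA4 and ITGB1 were the 2 of 10 members whose 3 libraries at 120 kPa were all below both libraries at 10 kPa, against 15.5% of tested genes.

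In control cells, 120 kPa against 10 kPa, 0 of 10 members passed edgeR's quasi-likelihood test, 2 genes did (0.0143% called), and 569 genes, 0 of them members, had an unadjusted p under 0.05. The blocked fit called 3 genes (0.0214% called) and DESeq2 12 (0.051% called), with 0 members in each. Apart from ITGB3 at 0.60 (SE 0.70), members lay between −0.20 (ITGA5, SE 0.17) and 0.06 (ITGAV, SE 0.16) on the log2 scale, and all 10 had overlapping groups. With the replicate block the ITGB3 value was −0.18 (SE 0.32). Number 3 occurs only at 120 kPa, so the block largely sets those libraries aside in this comparison. Leaving out each library in turn gave −0.064 to 0.94, so the direction of ITGB3 was not stable. The member medians were −0.12 in siNemp1 cells and −0.04 in control cells, against 0.02 and −0.01 over all genes. These stiffness comparisons use the same libraries as the siNemp1 comparisons.

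**Figure D3:**
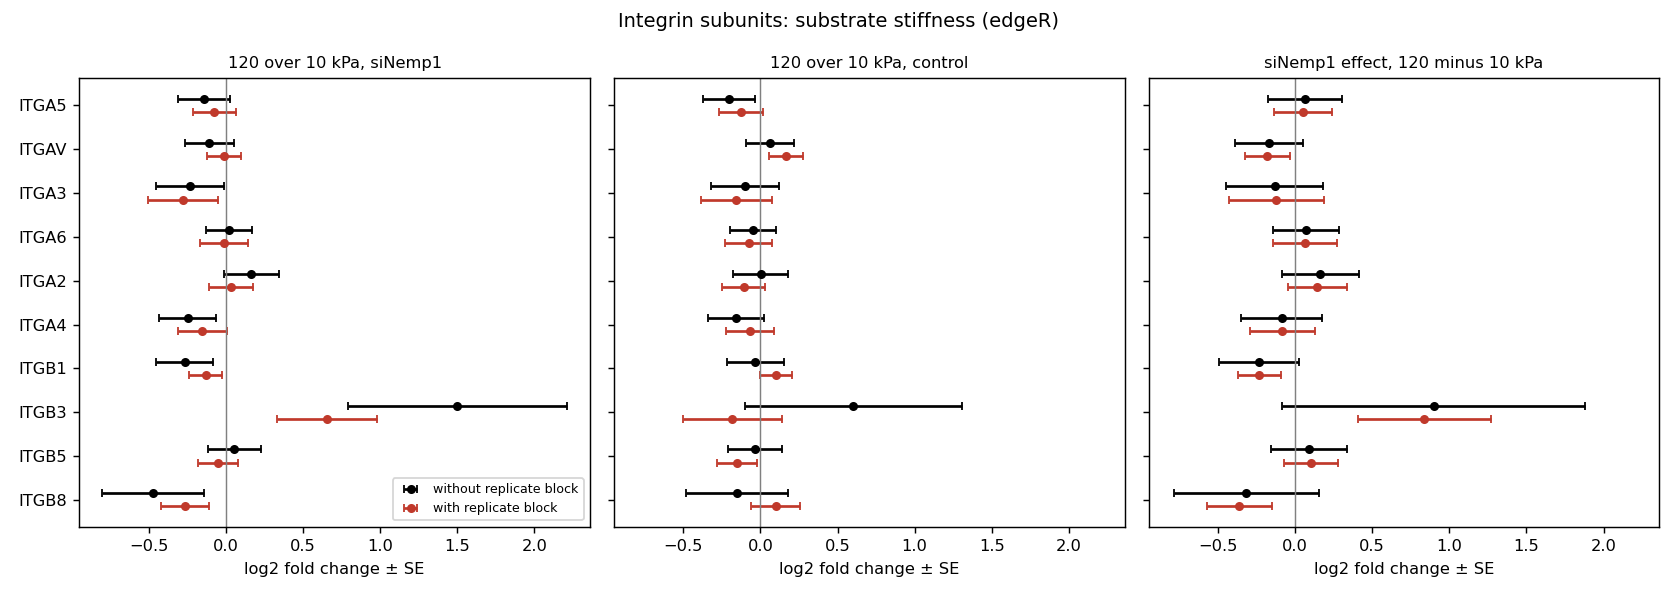
Log2 fold change of 120 over 10 kPa (± SE, edgeR) for each subunit in siNemp1 and in control cells, and the siNemp1 effect at 120 kPa minus that at 10 kPa, with no block and with a block for the replicate number. Most points lie within 0.5 of 0, and ITGB3 stands apart at 1.502 in siNemp1 cells with a wide error bar.

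Whether the siNemp1 effect differed between stiffnesses was tested as an interaction. Of 13990 genes 1 passed (0.00715% called) and 0 of 10 members did by edgeR's quasi-likelihood test, with 235 genes and 0 members at an unadjusted p under 0.05. The blocked fit called 4 genes (0.0286% called) and DESeq2 3 (0.0127% called), with 0 members in each. ITGA3 differed by −0.13 (SE 0.31) on the log2 scale between its effect at 120 kPa and that at 10 kPa. The largest values were 0.90 (SE 0.98) for ITGB3, −0.32 (SE 0.47) for ITGB8 and −0.23 (SE 0.26) for ITGB1. A p above the threshold does not show that the effects were equal.

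Within groups the members did not vary independently. Deviations of log2 CPM from the group mean were computed for each library, and at 120 kPa replicate 3 lay far from the mean in both treatments. For ITGB3 it deviated by 1.24 in siNemp1 cells and 0.94 in control cells. For ITGB8 it deviated by −0.76 in siNemp1 cells and −0.42 in control cells, and for ITGB1 by −0.29 in siNemp1 cells and −0.32 in control cells. Replicate 1 deviated the other way in both treatments: its ITGB8 deviation was 0.52 in siNemp1 cells and 0.49 in control cells, and its ITGB3 deviation −1.12 in siNemp1 cells and −0.80 in control cells. ITGB1, ITGB8, ITGAV and ITGA4 moved together across libraries, and ITGB3, ITGB5 and ITGA2 moved against them. The 2 libraries numbered 3 also had the lowest mitochondrial share of their group, 0.709% in siNemp1 cells and 0.913% in control cells, and its part in these deviations was not tested. Without these 2 libraries ITGB3 had a log2 fold change for siNemp1 against control at 120 kPa of 0.43 (SE 0.46), ITGB8 of −0.29 (SE 0.18), ITGA3 of −0.54 (SE 0.25) and ITGA4 of −0.41 (SE 0.17).

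**Figure D4:**
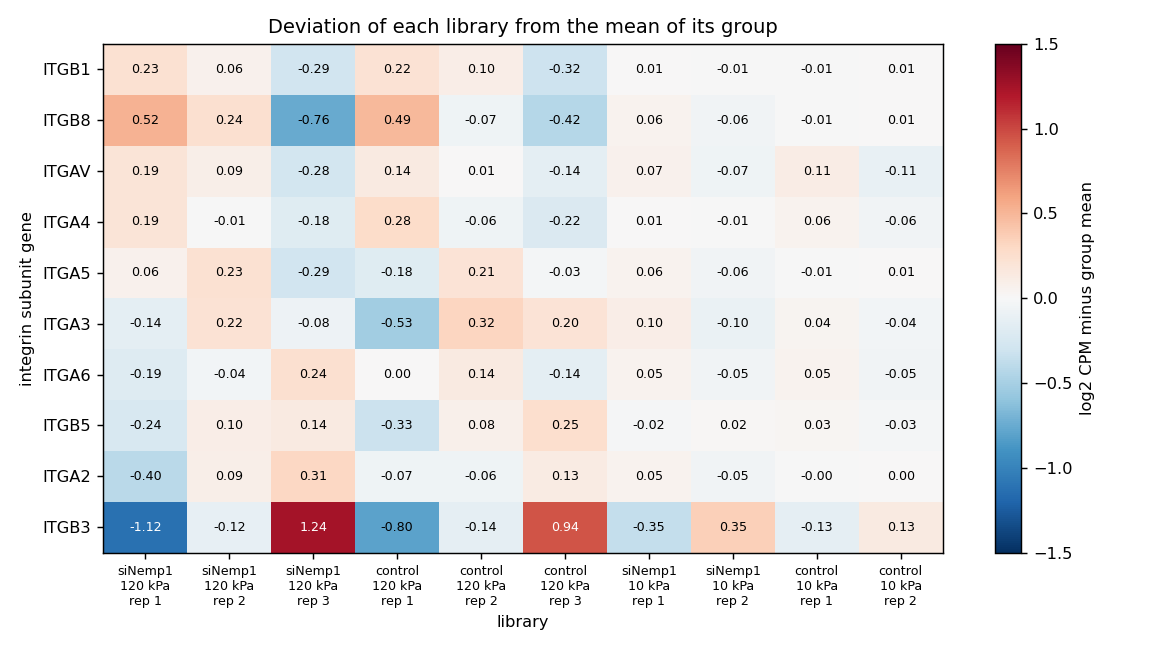
Deviation of log2 CPM from the group mean for each subunit in each library. At 120 kPa the libraries numbered 3 are high for ITGB3 (1.24 in siNemp1 cells, 0.94 in control cells) and low for ITGB8 (−0.76 in siNemp1 cells, −0.42 in control cells), and those numbered 1 are the reverse.

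As a description, the Pearson correlation of these deviations over the 10 libraries was 0.94 between ITGB1 and ITGB8, 0.92 between ITGAV and ITGB8, and 0.89 between ITGA4 and ITGB1. It was −0.95 between ITGB3 and ITGB8, −0.95 between ITGB1 and ITGB3, −0.94 between ITGA4 and ITGB5, and −0.80 between ITGA2 and ITGB8. All members of a library share its depth and scaling, and the libraries numbered 1 and 3 at 120 kPa carry most of the spread. In a group of 2 libraries the deviations mirror each other, so the 10 values are fewer than 10 independent points.

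The 250 bases before a RefSeq transcript start are shown for 3 members of these opposed sets, ITGA2 on one side and ITGB1 and ITGB8 on the other. They come from the RefSeq promoter table (GRCh38.p14), at chr5:52989102-52989351 (ITGA2, plus strand), chr10:32958231-32958480 (ITGB1, minus) and chr7:20330650-20330899 (ITGB8, plus). RefSeq starts differ from the GENCODE 29 gene bounds given above, and all 3 windows lie wholly or partly within those bounds. Capitals mark the matches found, on either strand, to a GC box (GGGCGG or CCGCCC), a TEAD site (GGAATG or CATTCC) or a CCAAT box (CCAAT or ATTGG).
ITGA2: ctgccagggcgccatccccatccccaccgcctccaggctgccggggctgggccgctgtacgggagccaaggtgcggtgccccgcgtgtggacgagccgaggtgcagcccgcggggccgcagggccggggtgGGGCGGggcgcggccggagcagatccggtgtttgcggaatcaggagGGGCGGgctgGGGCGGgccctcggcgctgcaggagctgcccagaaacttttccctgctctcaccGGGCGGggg
ITGB1: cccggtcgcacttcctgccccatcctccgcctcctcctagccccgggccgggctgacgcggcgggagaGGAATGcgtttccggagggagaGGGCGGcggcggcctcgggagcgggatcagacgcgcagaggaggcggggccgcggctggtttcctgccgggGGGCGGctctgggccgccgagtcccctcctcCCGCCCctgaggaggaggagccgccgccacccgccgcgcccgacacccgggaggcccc
ITGB8: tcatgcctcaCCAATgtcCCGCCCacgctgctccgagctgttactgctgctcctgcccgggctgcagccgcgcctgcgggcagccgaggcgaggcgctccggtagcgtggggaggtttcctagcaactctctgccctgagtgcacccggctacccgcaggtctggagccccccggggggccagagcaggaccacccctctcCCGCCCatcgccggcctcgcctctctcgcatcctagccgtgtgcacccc
The ITGA2 window held 4 GC boxes. The ITGB1 window held 3 GC boxes and 1 TEAD site, and the ITGB8 window held 2 GC boxes and 1 CCAAT box. AP-1 sites (TGANTCA) had 0 matches in these 3 windows. The same held for the CArG box, the binding site of serum response factor, and for the TATA box, which was searched as the 6 letters TATAAA on both strands. A second RefSeq window of ITGB1, at chr10:32935559-32935808, held 0 GC boxes and 3 TATA boxes. The windows of ITGAV and ITGA4, which moved with ITGB1, held 0 of the 6 motifs. Of 35116 windows of the same length, 42.6% held a GC box, 11.9% a TEAD site, 32.0% a CCAAT box, 6.57% an AP-1 site, 10.7% a TATA box and 1.16% a CArG box. A match is a description of the letters, and 8 of 10 members had an entry in the table.

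The genes whose pattern over the 10 libraries was most like that of a member were found by Pearson correlation of log2 CPM among 9523 genes averaging 5 CPM or more. For ITGA3 they were CAD (r = 0.98), an enzyme of pyrimidine synthesis, and TGM2 (r = 0.97), a transglutaminase of the matrix and cell surface. For ITGB1 they were TRO (0.99) and EFEMP1 (0.99), which encodes a fibulin of the extracellular matrix. For ITGB8 they were PCYOX1 and PPIP5K2 (0.99 each), for ITGA4 MPHOSPH10 and CKAP5 (0.99 each), and for ITGA5 CA9 and NUCB1 (0.99 each). ITGB3 was most like ZPR1 and PINX1 (0.98 each), ITGB5 like DAPK3 (0.98), and ITGA2 like MAST4 and NIBAN1 (0.97 each). The best match was weakest for ITGAV (PTGFR and PIGN, 0.93 each) and ITGA6 (KLF3, 0.94, and WIPI1, 0.93). The libraries share depth and scaling, how high the best match of other genes is was not tested, and these values are given as a description.

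Of 16 other integrin subunits listed, 10 were tested and 0 passed in any of the 6 comparisons by edgeR's quasi-likelihood test without the block; the most abundant was ITGA11, a collagen receptor chain, with 283 ± 64.5 CPM in siNemp1 cells and 355 ± 59.9 CPM in control cells at 120 kPa (SD, n = 3 each). With the block, ITGAE rose by 0.50 on the log2 scale (SE 0.13, adjusted p 0.038) at 120 kPa in siNemp1 cells. ITGA7, a laminin receptor chain, fell by 0.51 (SE 0.14, adjusted p 0.048) in the blocked average over stiffnesses. Each was the 1 call among the 10 tested in its comparison, a share near the background. Of all tested genes, the block called 8.75% at 120 kPa and 10.8% in the average. The ITGAE groups overlapped at 120 kPa: control replicate 3 had 28.8 CPM, above siNemp1 replicate 2 at 26.3 CPM. ITGA7 had 55.8, 71.2 and 48.7 CPM in siNemp1 cells at 120 kPa, against 66.8, 103.2 and 93.8 CPM in control cells, and like ITGA3 its control replicate 1 was the lowest control library. ITGA8 was listed at 0 in all 10 libraries, and ITGB2, the leukocyte beta chain, lay between 0.101 and 1.21 CPM. ITGA9 is not analysed here.

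Among 32 tested genes for integrin ligands, siNemp1 against control, 1 passed without the block, LAMC1, the gamma-1 chain of most laminins, which fell by 0.55 on the log2 scale (SE 0.11, adjusted p 0.048, edgeR) in the average over stiffnesses. With DESeq2's size factors in edgeR the lowest adjusted p of any gene there was 0.051, so the call was lost. LAMC1 was called in the blocked edgeR average (adjusted p 0.0063) and by DESeq2 (adjusted p 0.00057). It had 94.2, 87.4 and 69.2 CPM in siNemp1 cells at 120 kPa, against 139, 125 and 113 CPM in control cells. At 10 kPa LAMC1 had 98.3 and 108 CPM in siNemp1 cells, against 151 and 143 CPM in control cells. All 5 siNemp1 libraries were below all 5 control libraries. With the block at 120 kPa, 0 ligand genes were higher and 4 lower, against 6.24% and 2.51% of all tested genes: FN1 (fibronectin, ligand of alpha-5 beta-1), LAMC1, LAMA4 (a laminin alpha chain) and VTN (vitronectin, ligand of alpha-V beta-3 and alpha-V beta-5). VTN fell by 0.92 (SE 0.16, adjusted p 0.0097, edgeR with the block), with 5.95, 5.53 and 3.59 CPM in siNemp1 cells at 120 kPa, against 9.96, 10.96 and 7.41 CPM in control cells. FN1 had a log2 fold change of −0.84 (SE 0.33, adjusted p 0.23) at 120 kPa without the block and fell by 0.92 (SE 0.13, adjusted p 0.0062, edgeR) with it. FN1 had −0.68 (SE 0.40) at 10 kPa without the block, and 120 kPa against 10 kPa it had −0.51 (SE 0.36) in siNemp1 cells and −0.35 (SE 0.36) in control cells without the block, or −0.28 (SE 0.15) in siNemp1 cells and −0.033 (SE 0.15) in control cells with it. At 120 kPa the median log2 difference of the 32 was −0.16 without the block, against 0.01 over all genes. This list and the other lists of integrin-related genes were chosen with earlier results of these data known.

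Of 18 tested genes for activators and inhibitors of integrins, 0 passed without the block in any comparison. With the block, at 120 kPa and siNemp1 against control, 2 were higher and 3 lower by edgeR's quasi-likelihood test, against 6.24% higher and 2.51% lower of all tested genes. RAP1B, a small GTPase that brings talin to the membrane, rose by 0.45 (SE 0.09, adjusted p 0.016), with 176, 167 and 185 CPM in siNemp1 cells against 114, 127 and 146 CPM in control cells. FERMT2, which encodes kindlin-2, rose by 0.48 (SE 0.11, adjusted p 0.023), and its mean was 30.5 ± 1.95 CPM in siNemp1 cells and 21.9 ± 2.32 CPM in control cells (SD, n = 3 each). DAB2, an endocytic adaptor for beta tails, fell by 0.54 (SE 0.09, adjusted p 0.0097), and KANK2, which binds talin, fell by 0.42 (SE 0.11, adjusted p 0.033). Of 14 tested trafficking genes, SNX17, which binds beta-1 tails and returns them from endosomes to the surface, was the one called: it rose by 0.67 (SE 0.14, adjusted p 0.020), with 189, 229 and 218 CPM in siNemp1 cells against 98.1, 139 and 171 CPM in control cells. Of 18 tested surface partners, CD47 rose by 0.32 (SE 0.09, adjusted p 0.047) and THY1 fell by 0.73 (SE 0.15, adjusted p 0.020) in the same fit. Without the block, the median log2 difference at 120 kPa was −0.16 over the activators and inhibitors, −0.0067 over the trafficking genes, −0.05 over the surface partners and −0.05 over the other subunits, against 0.01 over all genes. In the blocked average over stiffnesses, 2 activator or inhibitor genes were higher (RAP1B and FERMT2) and 4 lower (among them DAB2 and TNS3), SNX17 was again higher, and the partners THY1 and LRP1 were lower, against 6.58% higher and 4.17% lower of all tested genes.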

How the data were processed

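RNA was measured in 10 libraries of hTERT RPE-1 cells. Per the labels' protocols, ribosomal RNA was depleted and libraries were made from random hexamers. Salmon 1.80, Trimmomatic 0.33, FastQC 0.11.9, the GRCh38 build and edgeR (no version) are named in the submitters' processing notes, and the transcript annotation used is not stated there. The authors deposited expected counts, that is estimated counts per gene with no scaling between libraries, for 40664 genes. These were rounded to whole numbers. Library totals were 17.9 to 23.8 M (M for 1000000).

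Groups came from the titles. Genes were filtered with edgeR's filterByExpr (13990 left), scaled with TMM and fitted with 1 mean per group by edgeR 4.0.16's quasi-likelihood test with robust dispersion (limma 3.58.1, R 4.3.3). P-values were two-sided and adjusted (Benjamini-Hochberg) across the 13990 genes in each of 6 comparisons, with an adjusted p under 0.05 called. The alternatives were the replicate number as a block, DESeq2 1.42.0, scaling by upper quartile or by DESeq2's size factors, no filter, at least 5 CPM in 2 libraries, a required log2 fold change of at least 1, the libraries of the compared groups alone, and each library left out in turn. Fits with the block at 120 kPa only, without the libraries numbered 3, and with ITGB1P1 added to ITGB1 were added after the data were seen. The fits were tested on simulated data.

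To see whether replicate numbers pair libraries, deviations from the group mean were correlated across genes between the siNemp1 and the control library of each number. At 120 kPa this gave 0.426 (replicate 1), 0.157 (replicate 2) and 0.359 (replicate 3), and at 10 kPa 0.0171, so the numbers were taken to pair the libraries at 120 kPa. The labels do not say what is shared under a number, and the block over all libraries treats equal numbers on soft and stiff substrates as one level. Number 3 occurs only at 120 kPa, so with the block those libraries add little to a comparison of stiffnesses.

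The members and the gene lists were chosen with earlier results of these data known. Named genes were the 10 members, NEMP1, the 2 genes most like each member in pattern, FN1, and up to 4 called genes by smallest p per list and comparison; ITGA11, ITGA8 and ITGB2 were named after their values were seen. Some genes taken by this rule are left out here. Lengths and positions came from GENCODE 29 on GRCh38, matched by Ensembl identifier, and promoter sequence from RefSeq on GRCh38.p14. Proteins are not analysed here.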

Additional observations from a re-analysis of the deposited data

Results flagged for a closer look

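ITGB1 was flagged because its siNemp1 differences had opposite signs at the 2 stiffnesses in every pair. The share of all tested genes with this pattern was not counted, and at 10 kPa the numbers were not found to pair libraries. The siNemp1 library was lower than the same-numbered control library in each of 3 pairs at 120 kPa, with log2 differences of −0.05, −0.09 and −0.03, and higher in each of 2 pairs at 10 kPa, with 0.19 and 0.16. The difference between the effects was −0.23 (SE 0.26; adjusted p 1.00, edgeR's quasi-likelihood interaction test), and −0.23 (SE 0.14) with the replicate block, also with an adjusted p of 1. The interaction therefore did not pass in either fit. Leaving out each library in turn gave differences of −0.38 to −0.12. The ITGB1 log2 fold change at 120 kPa then ran from −0.21 to 0.053, so its sign there was not stable.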

How the results depend on the processing

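Over 60 results of members (log2 fold changes of 10 genes in 6 comparisons) and 1130 alternative values, 1040 kept their direction and their side of the threshold, 12 became calls, and 78 values of 29 results turned sign, none of them called in either setting. The cause of these shifts was not tested.

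The replicate block moved the number of genes called, siNemp1 against control, to 1224 at 120 kPa, 4 at 10 kPa and 1504 in the average, to 2 for 120 against 10 kPa in siNemp1 cells and to 4 for the difference, and, over all libraries, changed no call of a member. No filter gave, in the same order, 643, 66 and 649, then 529 and 70, and 159 for 120 against 10 kPa in control cells. DESeq2 gave 642, 17 and 993, then 111 and 3, and 12 in control cells. A filter of 5 CPM gave 116 at 120 kPa, 312 in the average and 0 for stiffness in control cells and for the difference. In the average, DESeq2's size factors gave 0, upper-quartile scaling 71 and a log2 fold change of at least 1 gave 6. The libraries of the compared groups alone gave 2308 at 10 kPa and 1 for stiffness in siNemp1 cells. Of members, 1 (ITGA3) was called at 120 kPa with no filter, with DESeq2 and with the block at 120 kPa only (1255 of 13362 genes called), and in the average with no filter and with DESeq2. At 10 kPa 5 were called in the libraries there alone, and 1 (ITGB3) for stiffness in siNemp1 cells with no filter. Leaving out 1 library gave 0 to 582 genes called at 120 kPa (582 without control replicate 3), 0 to 2 at 10 kPa, 0 to 666 in the average (666 without the same library), 0 to 2 and 0 to 3 for stiffness in siNemp1 and control cells, and 0 to 3 for the difference; members called were 0 to 1 in the average (ITGA3, without control replicate 1 at 120 kPa) and 0 in the other comparisons.

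Sign changes (log2) were as follows. For siNemp1 against control at 120 kPa, ITGA6 was −0.010 with DESeq2's size factors, −0.041 with upper-quartile scaling, −0.0036 with no filter, −0.011 in DESeq2, −0.013 in the libraries at 120 kPa alone, −0.020 with the block there, and −0.22 without the libraries numbered 3, with or without the block. For 120 against 10 kPa in siNemp1 cells, ITGA6 was −0.011 and ITGB5 −0.050 with the block, and ITGA6 −0.00028 with DESeq2's size factors, −0.026 with upper-quartile scaling and −0.0017 in DESeq2. In control cells the block gave −0.11 for ITGA2, 0.10 for ITGB1, −0.18 for ITGB3 and 0.099 for ITGB8, and ITGA2 was −0.0061 with no filter and −0.0015 at 5 CPM. Without the libraries numbered 3 (with the block added, in second place), stiffness in siNemp1 cells gave −0.030 and −0.040 for ITGA2, −0.14 and −0.14 for ITGA6, and −0.045 and −0.054 for ITGB5. In control cells this gave −0.048 and −0.047 for ITGA2, 0.034 and 0.034 for ITGA6, 0.13 and 0.12 for ITGB1, −0.047 and −0.079 for ITGB3, and 0.059 and 0.034 for ITGB8, and for the difference −0.18 and −0.18 for ITGA6.

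Ranges that crossed 0 when 1 library was left out were, at 120 kPa, −0.31 to 0.046 for ITGA2, −0.15 to 0.090 for ITGA6, −0.13 to 0.071 for ITGAV, −0.21 to 0.053 for ITGB1, −0.22 to 1.34 for ITGB3 and −0.21 to 0.055 for ITGB5. At 10 kPa they were −0.64 to 0.15 for ITGB3 and −0.080 to 0.0067 for ITGB8, and in the average −0.099 to 0.015 for ITGA6, −0.026 to 0.11 for ITGB1 and −0.21 to 0.56 for ITGB3. For stiffness in siNemp1 cells they were −0.030 to 0.33 for ITGA2, −0.14 to 0.11 for ITGA6 and −0.045 to 0.16 for ITGB5. In control cells they were −0.067 to 0.037 for ITGA2, −0.27 to 0.12 for ITGA3, −0.12 to 0.015 for ITGA6, −0.030 to 0.18 for ITGAV, −0.14 to 0.11 for ITGB1, −0.064 to 0.94 for ITGB3, −0.17 to 0.11 for ITGB5 and −0.44 to 0.037 for ITGB8. For the difference they were −0.042 to 0.33 for ITGA2, −0.35 to 0.029 for ITGA3, −0.20 to 0.068 for ITGA4, −0.057 to 0.18 for ITGA5, −0.10 to 0.15 for ITGA6, −0.030 to 1.56 for ITGB3 and −0.059 to 0.22 for ITGB5.

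Where a group was left with 1 library, the fit assumes that it varies like the other groups. Depth limits ITGB3 most, at 22 to 155 counts a library.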
